A study of Homo sapiens with 20 samples.

Results

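The 110 genes described here are the human genes named ZNF with a number and at most 1 letter whose mean level reached 10 CPM (counts per 1000000 counts of a library) over 20 libraries, with ZNF277 left out by the rule. They were 110 of 509 genes with such a name and of 36601 genes in the table, and all 110 passed the filter on low counts. The level in all 5 groups chose the members, so their levels are given as a description. A working name for the class calls its mRNAs labile, meaning short-lived. No measurement of mRNA stability was analysed here, so that name could not be checked against the data, and the genes are called ZNF genes below.

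The cells were MDA-MB-231, a basal, mesenchymal cell line established from a human breast cancer. The 5 groups of 4 samples were untreated cells, without nanoparticles or laser; cells kept for 4 h with biomimetic photothermal nanoparticles at 0.1 mg/ml and no laser, called nanoparticles alone; and cells with the same nanoparticles followed by 10 min of an 808 nm laser whose temperature was set to 46, 50 or 54 °C. All groups were grown for 24 h at 37 °C, and each RNA sample pooled 2 wells of 30000 seeded cells. Cells lit without nanoparticles were not analysed here, so heat and light cannot be told apart, and no source used here gives the time from laser to lysis. The labels do not say that replicates were separate cultures, so p-values reflect the spread among these samples only, which can be technical.

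Zinc finger proteins of the C2H2 type fold short loops around a zinc ion and use strings of such fingers to read DNA or RNA. Many human ZNF proteins also carry a KRAB domain, which recruits the corepressor TRIM28 and with it heterochromatin enzymes, and many of these bind transposable elements. Their genes lie largely in clusters on chromosome 19. As a class, mRNAs of such regulators are known to turn over faster than those of metabolic enzymes.

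Library totals ran from 2401180 to 7710977 counts, with group means of 2872173 at 46 °C and 6769582 at 54 °C. Line markers were present, with VIM at 1739 CPM and CD44 at 685 CPM, while ESR1 stood at 0.331 CPM and PTPRC at 0.0824 CPM. Luminal and leukocyte markers were not all near 0: GATA3 had 13.1 CPM and CD68 9.30 CPM. The share of counts from mitochondrially encoded mRNAs was 11.98% with nanoparticles alone, then 4.94%, 17.01% and 13.8% at 46, 50 and 54 °C. The summed level of 3 nuclear noncoding RNAs (MALAT1, NEAT1 and KCNQ1OT1) was 1617 ± 296 CPM (SD, n = 4) with nanoparticles alone, and 3487 ± 560, 3852 ± 535 and 4371 ± 556 CPM at the rising temperatures. The part of these shifts in the ZNF results was not tested.

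The ZNF genes were mostly low. Their mean levels ran from 10.2 to 131.5 CPM with a median of 18.9 CPM: 5 genes reached 100 CPM, and 60 lay under 20 CPM. Libraries were made from the 3' ends of mRNAs, about 1 count per transcript whatever its length, so levels were not divided by length. ZNF207, a spindle protein that carries BUB3 to kinetochores, had the highest level at 131.5 CPM, followed by ZNF106, an RNA-binding protein, at 119.3 CPM and ZNF24, a SCAN-domain transcriptional regulator, at 107.8 CPM. Just inside the threshold were ZNF625 at 10.2 CPM, ZNF687 at 10.2 CPM and ZNF579 at 10.2 CPM. Just outside it were ZNF724 at 9.96 CPM, ZNF512B at 9.93 CPM and ZNF12 at 9.85 CPM. Values varied between replicates of a group by a median SD of 0.46 in log2 CPM for the ZNF genes and likewise 0.46 for all tested genes, whose median level was 21.0 CPM. It was 0.38 for the 6877 tested genes between the lowest and highest mean level of the ZNF genes, but their median level was higher, 32.6 CPM.

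Gene models carried what the names imply. By the longest coding transcript in GENCODE v29, 102 of the 110 genes (92.7%) encoded at least 1 C2H2 finger, against 5.07% of tested coding genes, with a median of 7.5 fingers and a maximum of 33 in ZNF462. No finger pattern was found in ZNF185, ZNF330, ZNF395, ZNF503, ZNF608, ZNF609, ZNF703 and ZNF839. A KRAB pattern was found in 30 of the 110 (27.3%), against 1.85% of tested coding genes, and 36 (32.7%) lay on chromosome 19, against 7.11%. Density of the pentamer ATTTA, the core of AU-rich decay elements, had a median of 1.93 per kb in the 3' untranslated regions of ZNF genes and 1.76 per kb in those of all tested coding genes.

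The summed TMM-scaled level of the 110 genes overlapped between nanoparticles alone and each other group. It was 3049, 3247, 3450.0 and 3546 CPM in the untreated libraries and 3205, 3110.4, 3383 and 3291 CPM with nanoparticles alone. It was 3146, 3094, 3168 and 3180.3 CPM at 46 °C, 2864, 3110.3, 3266 and 3227 CPM at 50 °C, and 3194, 3232, 3302 and 3124 CPM at 54 °C. The means were 3323 ± 221, 3248 ± 117, 3147 ± 38.0, 3117 ± 181 and 3213 ± 74.4 CPM in that order, and the values of each laser group overlapped those of nanoparticles alone. As a share of all counts, without TMM scaling, the genes held 0.313% to 0.349% with nanoparticles alone (mean 0.329%) and 0.267% to 0.2999% at 50 °C (mean 0.290%), and these ranges did not overlap. At 46 and 54 °C the shares, 0.320% to 0.337% and 0.298% to 0.330%, overlapped those with nanoparticles alone. Mitochondrial mRNAs took a larger share of counts at 50 °C, as given above, and their part in this was not tested. In these bulk samples, fewer expressing cells and less RNA per cell cannot be told apart.

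**Figure D1:**
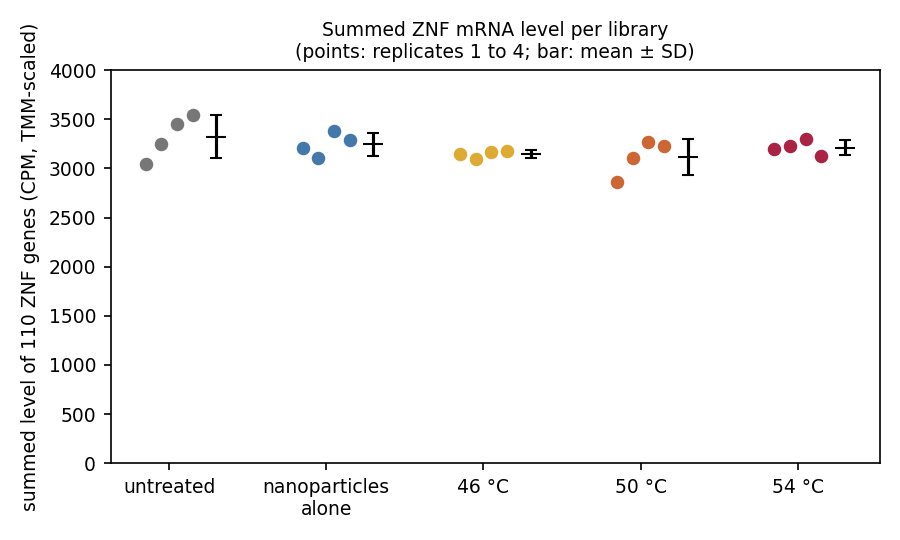
Summed TMM-scaled CPM of the 110 ZNF genes (vertical axis, from 0) in each of the 20 libraries, by group (horizontal axis), with the mean and SD beside the 4 points of each group. The points lie between 2864 and 3546 CPM, and every laser group overlaps nanoparticles alone.

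The comparison of nanoparticles alone with untreated cells addresses the effect of the particles without light. Of the 110 ZNF genes 0 passed the test in this comparison (edgeR quasi-likelihood test, adjusted p under 0.05 by Benjamini-Hochberg over 12149 genes), and 0% of all tested genes were called. At an unadjusted p under 0.05 there were 3 ZNF genes (2.73%), against 4.20% of tested genes of at least 10 CPM. DESeq2 called 0 ZNF genes and 0% of all genes, with 3 ZNF genes at an unadjusted p. The median log2 fold change was −0.06 over the ZNF genes and −0.00 over all tested genes. Replicate values did not overlap for 2 ZNF genes (1.82%), ZNF622 and ZNF148, against 2.73% of all tested genes and 2.69% of those of at least 10 CPM.

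ZNF622, a factor of large ribosomal subunit maturation, was among the 2, and it is named after its values were seen. It had 10.3, 14.6, 12.4 and 18.97 CPM in untreated cells and 26.6, 28.4, 27.5 and 29.2 CPM with nanoparticles alone. Every nanoparticle library lay above every untreated one. The log2 fold change was 1.00 ± 0.32 (SE, n = 4 per group), with an edgeR adjusted p of 1.00. In the laser groups it ranged from 12.5 to 46.6 CPM, both at 54 °C.

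At 46 °C, 2 of the 110 ZNF genes fell and 0 rose against nanoparticles alone. The counts here and at 50 and 54 °C leave out ZNF277, as the rule set. Its values, given below, were higher in all laser libraries than in any with nanoparticles alone. ZNF286A, a KRAB zinc finger gene, and ZNF592, a partner of ZMYND8 and ZNF687 in a chromatin complex, stood at 0.434 and 0.424 of their level with nanoparticles alone. Of all tested genes, 0.346% were called lower and 0.617% higher, and among those of at least 10 CPM 1.38% were called in either direction. The median log2 fold change of the ZNF genes was −0.02 against 0.01 for all tested genes, and their middle 50% lay between −0.32 and 0.23. At an unadjusted p under 0.05 there were 19 ZNF genes (17.3%), against 14.04% of tested genes of at least 10 CPM, and DESeq2 called 0 higher and 3 lower, ZNF286A, ZNF592 and ZNF574, beside 1.48% of all genes.

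Replicate values at 46 °C and with nanoparticles alone did not overlap for 17 ZNF genes (15.5%), 14 lower and 3 higher. The share was 6.96% of all tested genes (3.28% lower and 3.69% higher) and 8.40% of those of at least 10 CPM. The lower ZNF genes included ZNF286A, ZNF592, ZNF574, ZNF431, ZNF106 and ZNF227, and the higher ones were ZNF302, ZNF518A and ZNF621. All of the 17 but ZNF286A and ZNF592 missed the adjusted threshold. Of the 110 ZNF genes, 52 had a 95% interval that stayed within a 2-fold change in either direction, and the intervals of the others reached past 2-fold.

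**Figure D2:**
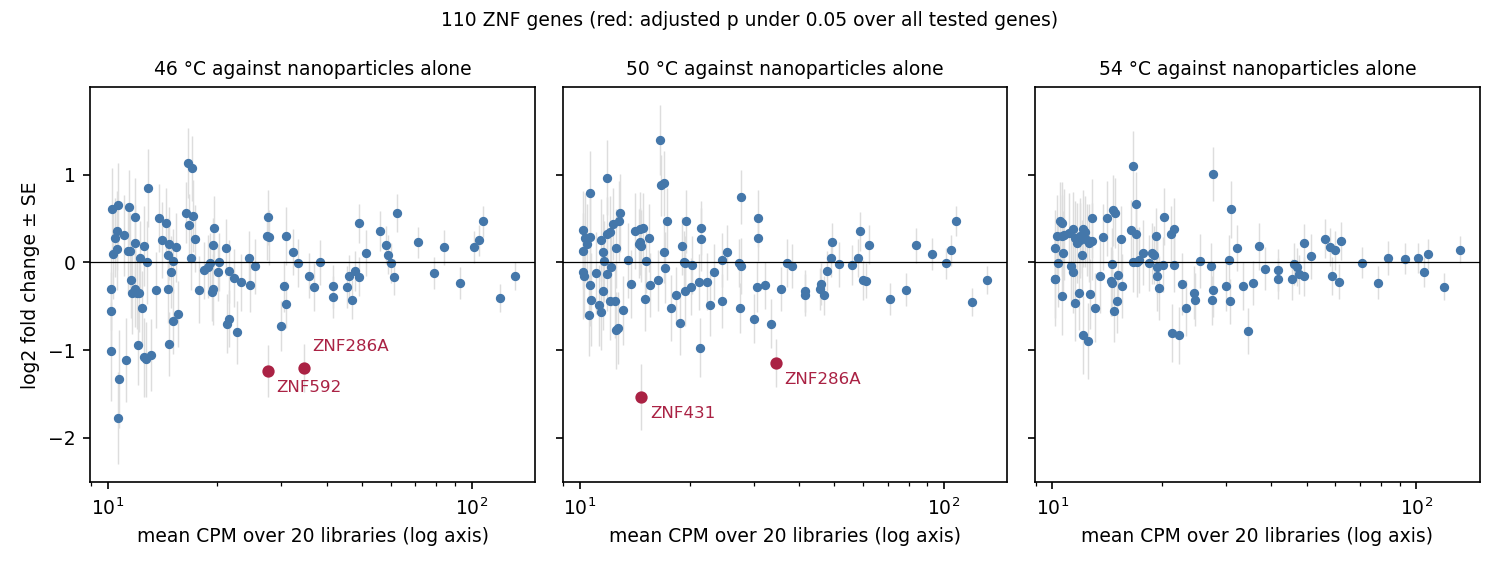
Log2 fold change against nanoparticles alone (vertical axis, grey bars ± SE) for the 110 ZNF genes by mean CPM over 20 libraries (horizontal log axis), 1 panel per laser temperature. Red points passed an adjusted p under 0.05: ZNF286A and ZNF592 at 46 °C, ZNF286A and ZNF431 at 50 °C, and 0 genes at 54 °C.

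At 50 °C, 2 ZNF genes fell and 0 rose against nanoparticles alone: ZNF286A again and ZNF431, a KRAB zinc finger repressor on chromosome 19. Of all tested genes, 0.691% were called lower and 0.527% higher, and among those of at least 10 CPM 1.7% in either direction. The median log2 fold change was −0.03 over the ZNF genes and 0.02 over all tested genes, and 62 of the 110 lay below 0. At an unadjusted p under 0.05 there were 13 ZNF genes (11.8%), against 14.6% of tested genes of at least 10 CPM, and DESeq2 called ZNF286A and ZNF431 lower and 0 higher, beside 2.02% of all genes. Replicate values did not overlap for 13 ZNF genes (11.8%), 8 lower and 5 higher. The share was 8.33% of all tested genes (4.13% lower and 4.2% higher) and 9.98% of those of at least 10 CPM.

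At 54 °C, 0 ZNF genes passed the edgeR test in either direction, against 0.123% of all tested genes. At an unadjusted p under 0.05 there were 6 (5.45%), against 6.79% of tested genes of at least 10 CPM. DESeq2 called 0, beside 0.283% of all genes, with 5 ZNF genes at an unadjusted p. The median log2 fold change was 0.00 over the ZNF genes and 0.01 over all tested genes, and 54 of the 110 lay below 0. Replicate values did not overlap for 3 ZNF genes (2.73%), against 4.28% of all tested genes and 4.49% of those of at least 10 CPM. These were ZNF286A, ZNF282 and ZNF618, all lower at 54 °C, a direction seen for 2.09% of all tested genes. The 3 laser comparisons share the nanoparticles-alone libraries, so they are not independent.

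**Figure D3:**
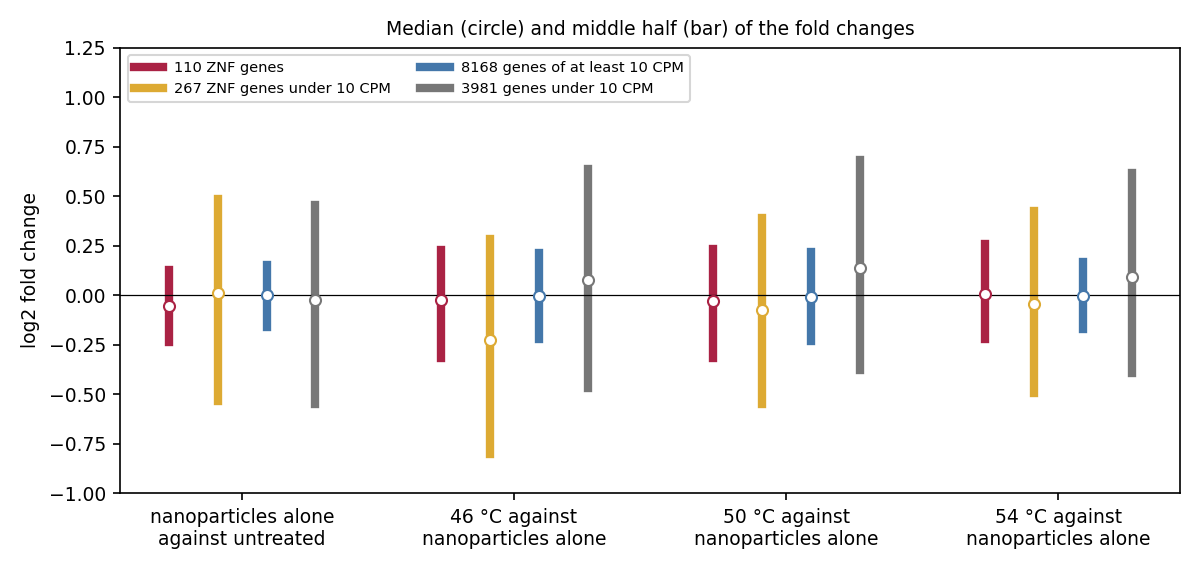
Median (circle) and middle 50% (bar) of log2 fold changes (vertical axis) in 4 comparisons (horizontal axis) for the 110 ZNF genes, 267 ZNF genes under 10 CPM, 8168 tested genes of at least 10 CPM and 3981 under it. The medians of the 110 ZNF genes were −0.06, −0.02, −0.03 and 0.00, and that of the low ZNF genes at 46 °C was −0.23.

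ZNF286A (ENSG00000187607, chr17:15699577-15720787, plus strand, GRCh38 by GENCODE v29) encodes 10 C2H2 fingers after a KRAB box. It had 54.6, 32.4, 35.5 and 57.7 CPM in untreated cells and 46.6, 36.1, 65.1 and 58.5 CPM with nanoparticles alone. It had 19.9, 18.5, 25.5 and 25.6 CPM at 46 °C, 20.8, 11.4, 26.2 and 34.8 CPM at 50 °C, and 27.3, 29.4, 35.6 and 27.1 CPM at 54 °C. All 12 laser libraries lay below the lowest nanoparticles-alone library, 36.1 CPM. Those at 50 and 54 °C overlapped the untreated libraries, the lowest of which had 32.4 CPM.

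Against nanoparticles alone the log2 fold change of ZNF286A was −1.20 ± 0.28 at 46 °C (edgeR adjusted p = 0.0102, Benjamini-Hochberg; 95% interval −1.76 to −0.65) and −1.14 ± 0.27 at 50 °C (adjusted p = 0.0167; −1.69 to −0.60). At 54 °C it was −0.78 ± 0.26 (edgeR adjusted p = 0.499). The steps between temperatures were 0.06 ± 0.28 from 46 to 50 °C, 0.36 ± 0.27 from 50 to 54 °C and 0.42 ± 0.27 from 46 to 54 °C (edgeR adjusted p = 0.979, 0.971 and 0.725). No step passed the test, though all 54 °C libraries lay above all 46 °C libraries. The call at 46 °C was lost without any 1 of 4 libraries (46 °C replicates 1 and 2, nanoparticles alone replicates 3 and 4; edgeR adjusted p up to 0.0616), and that at 50 °C without 50 °C replicates 1 or 2 or nanoparticles alone replicates 3 or 4 (up to 0.115).

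Counts of ZNF286A may be shared with a near-identical copy. Of the 31-base words in the last 400 bases of its longest coding transcript, 85.7% also occur in another gene. ZNF286B had the most matches, but the share held by each gene was not computed. AC005324.4 overlaps ZNF286A on the same strand. No source used here says how the counting assigned such reads. ZNF286A is therefore uncertain as the source of these counts. It is 1 of 4 ZNF genes with at least 50% of these words shared, with ZNF625, ZNF410 and ZNF322, while 81 of the 110 shared none. The words come from 1 annotated transcript per gene, which need not hold the 3' end that the libraries read. In ZNF302, ZNF721 and ZNF749 that transcript had no annotated 3' untranslated region.

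ZNF431 (ENSG00000196705, chr19:21142024-21196053, plus strand) encodes 12 fingers after a KRAB box and shares none of its last 400 bases in this way. It had 19.4, 26.8, 12.4 and 13.9 CPM in untreated cells and 15.9, 24.3, 25.02 and 21.6 CPM with nanoparticles alone. It had 7.37, 12.8, 14.1 and 11.3 CPM at 46 °C, 6.84, 4.72, 9.06 and 9.26 CPM at 50 °C, and 14.5, 16.9, 12.8 and 14.98 CPM at 54 °C. The libraries at 50 °C were the lowest group and did not overlap either unheated group, while those at 54 °C overlapped both.

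The log2 fold change of ZNF431 against nanoparticles alone was −1.54 ± 0.37 at 50 °C (edgeR adjusted p = 0.0193; 95% interval −2.28 to −0.79). It was −0.93 ± 0.37 at 46 °C (adjusted p = 0.271, edgeR) and −0.55 ± 0.35 at 54 °C (adjusted p = 0.959, edgeR), and the rise of 0.99 ± 0.37 from 50 to 54 °C did not pass (adjusted p = 0.557, edgeR). The call at 50 °C was lost without 50 °C replicates 1 or 2 or nanoparticles alone replicates 2 or 3 (edgeR adjusted p up to 0.104). Its annotated 3' untranslated region of 12019 bases holds 44 copies of ATTTA, or 3.66 per kb, beside a median of 1.93 per kb for the ZNF genes. The 3' end used in these cells was not examined, and a part of ATTTA in the fall was not tested.

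Upstream sequences of these genes are shown because they were the ZNF genes called at 50 °C. Each run is the 250 bases before the RefSeq start, 5' to 3' on the gene's strand, on GRCh38.p14 (chr17:15699502-15699751 for ZNF286A and chr19:21141790-21142039 for ZNF431). The GENCODE v29 starts given above, 15699577 for ZNF286A and 21142024 for ZNF431, lie within these runs. The last part of each run is thus inside the gene by that annotation, and so is the match marked in ZNF286A. Capitals mark a match to TACANNTCC, part of the long motif of the factor ZNF143, on the reverse strand in ZNF286A, and the 2 CCAAT boxes on the forward strand in ZNF431.
ZNF286A: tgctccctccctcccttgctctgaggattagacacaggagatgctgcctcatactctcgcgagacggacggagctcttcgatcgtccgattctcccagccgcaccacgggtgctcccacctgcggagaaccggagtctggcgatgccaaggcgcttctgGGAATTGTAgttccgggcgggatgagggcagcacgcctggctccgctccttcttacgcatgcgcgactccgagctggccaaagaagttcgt
ZNF431: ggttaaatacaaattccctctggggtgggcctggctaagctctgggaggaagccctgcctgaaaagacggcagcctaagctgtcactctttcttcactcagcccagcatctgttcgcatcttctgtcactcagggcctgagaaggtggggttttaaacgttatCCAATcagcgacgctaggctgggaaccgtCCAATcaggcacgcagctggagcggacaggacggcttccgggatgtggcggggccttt

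Motifs were searched on both strands of 300 bases, 250 before and 50 after each start, for the 96 of 110 ZNF genes found in the RefSeq table and for all 27305 promoters there. The 2 minimal heat shock element forms GAANNTTC and TTCNNGAA, each its own reverse complement, were present in 10 of 96 ZNF promoters (10.4%) in at least 1 form and in 13.7% of all promoters. The E-box CACGTG, bound by MYC with MAX, was in 6 (6.25%) and in 7.43% of all. CCAAT was in 40 (41.7%) and in 35.7% of all. TACANNTCC was in 13 (13.5%) and in 4.04% of all, and this motif and CCAAT were chosen after sequences were seen. Neither ZNF286A nor ZNF431 held a heat shock element form or CACGTG in this window. The ZNF promoters had a median GC content of 63.2% against 58.3% for all.

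ZNF592 (ENSG00000166716, chr15:84748635-84806432, plus strand) encodes 8 fingers and no KRAB pattern. It had 37.0, 28.95, 17.4 and 35.2 CPM in untreated cells and 35.1, 28.9, 45.4 and 42.0 CPM with nanoparticles alone. It had 17.6, 21.5, 16.1 and 8.64 CPM at 46 °C, 18.2, 35.0, 28.4 and 23.6 CPM at 50 °C, and 25.2, 32.5, 32.4 and 22.0 CPM at 54 °C. Only the 46 °C libraries lay wholly below those with nanoparticles alone, and 1 untreated library, at 17.4 CPM, fell within their range.

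The log2 fold change of ZNF592 was −1.24 ± 0.30 at 46 °C (edgeR adjusted p = 0.0168; 95% interval −1.83 to −0.65), −0.52 ± 0.28 at 50 °C (adjusted p = 0.511, edgeR) and −0.43 ± 0.28 at 54 °C. The difference between 54 and 46 °C, 0.81 ± 0.29, did not pass (adjusted p = 0.327, edgeR). Without 46 °C replicate 4, or nanoparticles alone replicate 3 or 4, the call at 46 °C was lost (edgeR adjusted p up to 0.104). ZNF687, its partner in the ZMYND8 complex, had 10.2 ± 1.7 CPM with nanoparticles alone and 8.3 ± 4.2 CPM at 46 °C, a log2 fold change of −0.30 ± 0.46.

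Between laser temperatures 1 ZNF gene was called, ZNF574, higher at 50 °C than at 46 °C, where 0.584% of all tested genes were called higher and 0.609% lower. In that step 9 ZNF genes (8.18%) had an unadjusted p under 0.05 in edgeR, against 13.6% of tested genes of at least 10 CPM. From 50 to 54 °C edgeR called 0 ZNF genes (0.198% of all tested genes), with 10 (9.09%) at an unadjusted p under 0.05. From 46 to 54 °C it also called 0 (0.634% of all tested genes), with 6 (5.45%) at an unadjusted p. Of tested genes of at least 10 CPM, 7.52% and 10.8% had such a p from 50 to 54 and from 46 to 54 °C. DESeq2 called ZNF451 lower from 46 to 50 °C and 0 ZNF genes in the other steps, but it gave an adjusted p to only 29, 24 and 29 of the 110 genes from 46 to 50, 50 to 54 and 46 to 54 °C, and ZNF574 was without one. It called 5.71%, 1.58% and 2.85% of all genes with an adjusted p in these steps. Replicate values did not overlap for 5 ZNF genes from 46 to 50 °C (7.1% of all tested genes), for 6 from 50 to 54 °C (5.13%) and for 8 from 46 to 54 °C (5.73%), all 8 of them higher at 54 °C, against 2.68% of all tested genes in that direction. These were 4.55%, 5.45% and 7.27% of the ZNF genes, against 8.61%, 5.72% and 6.76% of tested genes of at least 10 CPM.

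ZNF574 (ENSG00000105732, chr19:42068477-42081549, plus strand) encodes 18 fingers. It had 13.9, 11.8, 24.4 and 9.29 CPM in untreated cells and 7.43, 15.3, 8.94 and 11.8 CPM with nanoparticles alone. It had 2.56, 3.58, 0 and 6.31 CPM at 46 °C, 16.8, 10.7, 17.6 and 8.42 CPM at 50 °C, and 13.96, 12.1, 8.18 and 12.98 CPM at 54 °C. The 46 °C libraries, with 8, 12, 0 and 19 counts, lay below all 16 others. GRIK5, which overlaps it on the other strand, had 0 counts in every library.

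The log2 fold change of ZNF574 from 46 to 50 °C was 2.07 ± 0.53 (edgeR adjusted p = 0.0282; 95% interval 1.01 to 3.13). Against nanoparticles alone it was −1.78 ± 0.53 at 46 °C (adjusted p = 0.100, edgeR). DESeq2 called that fall (adjusted p = 0.0423), as did edgeR without 46 °C replicate 4 (adjusted p = 0.0298), where it was −2.34. From 46 to 54 °C the log2 fold change was 1.89 ± 0.52 (adjusted p = 0.0850, edgeR). The call from 46 to 50 °C was lost without 46 °C replicates 1, 2 or 3 or 50 °C replicates 1 or 3 (edgeR adjusted p up to 0.103). Without replicate 3 at 46 °C, the library at 0, it was 1.69.

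**Figure D4:**
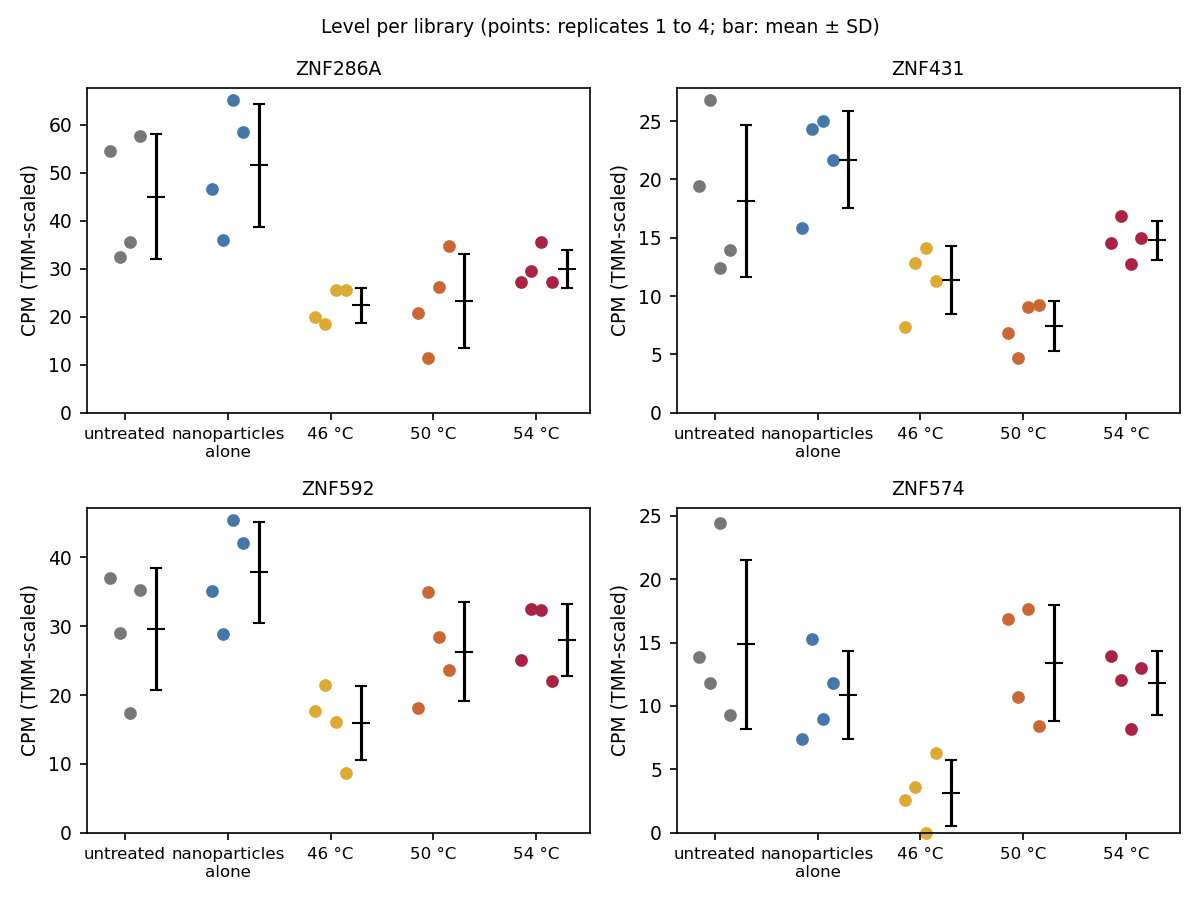
TMM-scaled CPM of ZNF286A, ZNF431, ZNF592 and ZNF574 (vertical axes, from 0) in each library by group (horizontal axis), with mean and SD. ZNF286A is lower in all 12 laser libraries than in any library with nanoparticles alone, ZNF431 is lowest at 50 °C, and ZNF592 and ZNF574 are lowest at 46 °C.

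Some of the ZNF genes, with ZNF592 among them, were grouped by known roles, a grouping made after their values were seen. Most of the ZNF genes were placed in no such group, and groups could share a gene. Among 7 factors of RNA, ribosomes and translation, edgeR called 0 at any laser temperature against nanoparticles alone (1, 0 and 0 at an unadjusted p under 0.05 at 46, 50 and 54 °C; DESeq2 called 0). ZNF598, the ubiquitin ligase that marks collided ribosomes, had 37.8 ± 14.7 CPM with nanoparticles alone and 31.1 ± 11.2, 37.6 ± 4.9 and 42.8 ± 6.6 CPM at 46, 50 and 54 °C. ZNF638, an RNA-binding protein, had log2 fold changes of 0.56 ± 0.22, 0.20 ± 0.22 and 0.24 ± 0.22. Among 10 partners of chromatin complexes ZNF592 was the 1 gene called by edgeR at 46 °C, with 0 called at 50 and 54 °C (2 and 1 at an unadjusted p; DESeq2 called 0).

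ZNF217, an oncogene amplified in breast cancers, had log2 fold changes of −0.09 ± 0.33, −0.37 ± 0.32 and −0.00 ± 0.32 at 46, 50 and 54 °C. ZNF410, an activator of the gene for the nucleosome remodeller CHD4, had −0.26 ± 0.31, 0.03 ± 0.30 and −0.43 ± 0.30. Among 9 transcription factors of broad use, edgeR and DESeq2 called 0 in these comparisons (2, 2 and 0 at an unadjusted p under 0.05 in edgeR). ZNF143, a factor at many promoters, had −0.59 ± 0.37, −0.26 ± 0.37 and −0.27 ± 0.36, and ZNF703, amplified in luminal breast cancers, had −0.23 ± 0.32, −0.10 ± 0.32 and −0.52 ± 0.32. Among 6 KRAB proteins linked to transposable elements, imprinted loci or ZNF clusters, edgeR and DESeq2 called 0 (0, 1 and 0 at an unadjusted p in edgeR), and ZNF91, a repressor of SVA elements, had 0.36 ± 0.45, −0.60 ± 0.46 and −0.38 ± 0.45.

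For the 3 most abundant ZNF genes the standard errors were 0.15 to 0.17, against a median of 0.36 over all 110 at 46 °C. ZNF207 had log2 fold changes of −0.15 ± 0.16, −0.20 ± 0.16 and 0.15 ± 0.15 at 46, 50 and 54 °C, and ZNF106 had −0.41 ± 0.16, −0.45 ± 0.16 and −0.28 ± 0.16. ZNF24 had 0.47 ± 0.17, 0.48 ± 0.17 and 0.09 ± 0.17, with means of 90.4 ± 15.96 CPM in nanoparticles alone and 124.8 ± 24.2, 125.5 ± 14.2 and 96.3 ± 20.4 CPM in the laser groups. None of these passed an edgeR adjusted p of 0.05.

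A few ZNF genes near the threshold are named after their values were seen. ZNF621 had 8.45, 12.9, 5.36 and 5.90 CPM with nanoparticles alone and 17.9, 20.9, 25.7 and 22.2 CPM at 50 °C, with no overlap, and a log2 fold change of 1.39 ± 0.40 (edgeR adjusted p = 0.0643). Untreated cells, at 5.38, 15.6, 27.1 and 23.2 CPM, spanned both ranges. ZNF451, a SUMO ligase, had 84.9, 73.1, 88.5 and 85.1 CPM at 46 °C and 45.2, 51.6, 53.1 and 61.7 CPM at 50 °C. Its log2 fold change from 46 to 50 °C was −0.65 ± 0.18 (edgeR adjusted p = 0.0556), and the groups did not overlap.

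Fold changes were also summarised by features that the choice of members did not use. The 30 genes with a KRAB pattern had median log2 fold changes of −0.00, −0.09 and −0.01 at 46, 50 and 54 °C, and the 80 without had −0.04, −0.02 and 0.00. Genes with other forms of the KRAB box may be among the 80. The 36 on chromosome 19 had −0.01, −0.08 and −0.01, and the 74 elsewhere −0.04, −0.00 and 0.00. The 52 with a density of ATTTA at or above the ZNF median had 0.07, −0.08 and −0.03, and the 52 below it −0.11, −0.02 and 0.06. These medians are descriptions and their differences were not tested.

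The 267 tested ZNF genes under 10 CPM had 0 called by edgeR at any laser temperature, with 16, 11 and 9 at an unadjusted p under 0.05 at 46, 50 and 54 °C. These were 5.99%, 4.12% and 3.37%, against 4.75%, 4.92% and 3.59% of all tested genes under 10 CPM. DESeq2 called 1 lower at 46 °C, 1 higher at 50 °C and 0 at 54 °C. Their median log2 fold change at 46 °C was −0.23, with 60.3% below 0, whereas all tested genes under 10 CPM had a median of 0.08, with 45.9% below 0. At 50 °C the medians were −0.07 and 0.14, and at 54 °C −0.05 and 0.09. The median of these low ZNF genes at 46 °C was −0.31 to −0.14 under the alternatives in scaling, filter, test and replicates. Their summed level was 1118 ± 50.0 CPM at 46 °C and 1213 ± 83.1 CPM with nanoparticles alone, and the values of the groups overlapped. A KRAB pattern was found in 61.4% of them and 55.8% lay on chromosome 19, beside 27.3% and 32.7% of the ZNF genes of at least 10 CPM.

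Genes that act with KRAB zinc fingers gave 0 calls of 28 tested at any laser temperature against nanoparticles alone (edgeR, with 1, 1 and 0 at an unadjusted p under 0.05 at 46, 50 and 54 °C; DESeq2 also 0). TRIM28, the KRAB corepressor, had 146.6 CPM with nanoparticles alone and 100.9, 177.7 and 117.8 CPM at 46, 50 and 54 °C. It rose from 46 to 50 °C by a log2 fold change of 0.82 ± 0.17 (edgeR adjusted p = 0.0019), and CHD4 rose by 0.54 ± 0.14 (edgeR adjusted p = 0.0333). These were 2 of the 28 called in that step. SETDB1, the histone methyltransferase that TRIM28 recruits, had log2 fold changes of −0.24 ± 0.36, −0.06 ± 0.35 and −0.11 ± 0.35 at 46, 50 and 54 °C.

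Other zinc finger families at 10 CPM or more (ZBTB, ZSCAN, ZKSCAN, ZFP, KLF and SP genes) had 1 of 32 called higher and 1 lower at 46 °C. KLF10, an early-response gene of TGF-β, rose by 1.36 ± 0.30 (edgeR adjusted p = 0.00743), and ZBTB7A, a POZ-domain repressor, fell by 0.70 on the log2 scale (edgeR adjusted p = 0.00129). At 50 °C 1 was called, ZBTB44, at −0.94 ± 0.23 (edgeR adjusted p = 0.0193), and at 54 °C 0, with 2 at an unadjusted p and 0 by DESeq2. The family medians were −0.17, −0.17 and 0.00.

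Among 36 tested genes listed as having short-lived mRNAs, 8 rose and 3 fell at 46 °C. The list was made with earlier results of these data known, and the stability of its mRNAs was not checked here. Of all tested genes, edgeR called 0.617% higher and 0.346% lower at 46 °C. It called 0.691% lower at 50 °C and 0.123% in either direction at 54 °C. IER5, an immediate-early gene, rose by 2.43 ± 0.13 (edgeR adjusted p = 2.38e-20) and ID2, an inhibitor of DNA binding, by 2.63 ± 0.37 (edgeR adjusted p = 2.09e-06), while its relative ID1 had −1.55 ± 0.18 (edgeR adjusted p = 6.2e-09). At 50 °C 2 of 36 fell, ZFP36L2, an mRNA decay factor, at −0.99 ± 0.23 (edgeR adjusted p = 0.0167), and HEXIM1, an inhibitor of P-TEFb, at −0.89 ± 0.23 (edgeR adjusted p = 0.0337). At 54 °C 1 fell, BCL6, a transcriptional repressor, at −3.01 ± 0.23 (edgeR adjusted p = 2.74e-14). MYC, which the series title names, had 0.29 ± 0.33, 0.20 ± 0.33 and 0.67 ± 0.33 and was not called. The difference in frequency between these genes and the ZNF genes was not tested.

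Genes of glycolysis and the cytoskeleton, listed as having long-lived mRNAs, had 0 of 20 called by edgeR against nanoparticles alone at 46, 50 and 54 °C. In edgeR 4, 5 and 3 had an unadjusted p under 0.05, and DESeq2 called 0, 2 and 0. Their medians were −0.09, 0.10 and 0.03. Among 29 mRNA decay factors edgeR called 0, 4 and 0, and their medians were −0.28, −0.33 and −0.15. At 50 °C PABPC1, the poly(A) tail binding protein, rose, and ZFP36L2, TNRC6C and CNOT6 fell, the last a deadenylase of the CCR4-NOT complex. At 46 and 54 °C there were 7 and 2 decay factors at an unadjusted p, and DESeq2 called 1 at each.

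ZNF277, which the rule left out, is described without a test. Its counts were 11.8, 7.87, 5.00 and 10.1 CPM with nanoparticles alone, 40.7, 53.1, 37.6 and 37.5 CPM at 46 °C, 136.0, 100.8, 123.3 and 108.3 CPM at 50 °C, and 28.1, 23.1, 27.8 and 41.9 CPM at 54 °C. All laser libraries lay above all those with nanoparticles alone. The annotated span of ZNF277 holds the 7SK-derived pseudogene RN7SKP187, and reads of the 2 were not told apart here.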

How the data were processed

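Poly(A)-primed libraries of mRNA 3' ends (QuantSeq FWD) were made from 20 samples, 4 in each of 5 groups. The authors deposited estimated counts per gene, and the submitters' processing notes name STAR, Salmon and the build GRCh38. No source used here gives their versions, the annotation, any molecular identifiers or whether counting used strand, so overlapping genes may share counts (43 ZNF genes overlap a gene on the same strand and 59 on the opposite strand). Between 1.74% and 2.9% of values in a library were not whole, and all were rounded.

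Counts of 12149 genes (filterByExpr, count of 10, total of 15) were fitted with edgeR 4.0.16 in R 4.3.3, robust quasi-likelihood, TMM scaling and 5 group means over 20 samples. Adjusted p-values are Benjamini-Hochberg over all 12149 genes, and a gene was called under 0.05. CPM values of the libraries are TMM-scaled, and fold changes carry standard errors from the fit. Chi-square values between replicates of a group were 7.54 to 22.4 per gene, above sampling noise, so none was taken as a duplicate. Depth and intervals cover the spread of these samples, and copies made by PCR are not independent molecules.

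Gene positions, coding sequences, C2H2 fingers (C, 2 residues, C, 12 residues, H, 3 to 5 residues, H) and KRAB boxes came from GENCODE v29, translated in place of the RefSeq proteins planned, and promoters from RefSeq (GRCh38.p14). A KRAB box was counted only where the longest coding transcript held the pattern F, S or T, any residue, E or D, E, W. Other forms of the box were missed, so genes without the pattern may still carry KRAB. The authors' annotation may differ. The members and gene lists were chosen with earlier results of these data known. Named genes are ZNF431 and ZNF286A, called members (the 8 largest rises and falls against nanoparticles alone, 3 in other comparisons), the 3 highest, the 3 on each side of the threshold, and the 3 called genes with the smallest p of each list; others are marked or describe a role. Alternatives were DESeq2 1.42.0, RLE factors, library totals, no filter, a replicate block, replicates 1 and 2 or 3 and 4 only, each library left out, and members chosen on the 8 unheated libraries.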

Additional observations from a re-analysis of the deposited data

Results flagged for a closer look

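ZNF800, a C2H2 zinc finger gene, was marked for 1 library that stood apart in its group. With nanoparticles alone it had 13.6, 12.7, 33.96 and 15.97 CPM, and the gap of replicate 3 to the nearest of the others was 0.846 of the whole range, above Dixon's 95% critical value for 4 samples. In 50 groups of 4 looked at in this way (the summed level and 9 named genes in 5 groups), chance marks about 1 in 20. Against these libraries the log2 fold change of ZNF800 at 54 °C was 1.01 ± 0.31 (edgeR adjusted p = 0.340), and without replicate 3 it was 1.43 (edgeR adjusted p = 0.0384).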

How the results depend on the processing

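The counts of ZNF genes called were small and moved by 1 gene in many alternatives. Of those lower at 46 °C there were 3 by DESeq2 and 3 with the replicate block, where ZNF574 joined ZNF286A and ZNF592 (edgeR adjusted p = 0.0496 with the block), 1 in replicates 1 and 2 (ZNF227) and 1 in replicates 3 and 4 (ZNF592), and leaving out a library gave 0 to 2. Of those lower at 50 °C there was 1 in replicates 1 and 2 (ZNF286A) and 0 in replicates 3 and 4, and leaving out a library gave 0 to 2. Of those higher at 50 °C there was 1, ZNF621, with no filter, with the replicate block and in replicates 3 and 4, and 0 to 1 without a library. At 54 °C 0 to 1 was higher without a library (ZNF800). From 46 to 50 °C, 0 were higher by DESeq2 (which gave ZNF574 no adjusted p), in replicates 1 and 2 and in replicates 3 and 4, and 0 to 1 without a library, while 1, ZNF451, was lower by DESeq2, with library totals and with the replicate block. From 46 to 54 °C, 1 was higher with no filter, with the replicate block (both ZNF574) and in replicates 1 and 2 (ZNF207), and 0 to 1 without a library. RLE factors and the choice of members on the 8 unheated libraries gave the counts of the report. Of 923 values of named genes under an alternative, 881 stayed on their side of the threshold, 49 of them uncalled in both fits with a changed sign, 14 passed it, 28 no longer did and 0 called values reversed. Same-number libraries of different groups correlated by 0.02 to 0.07 in their deviations (median 0.04), under the 0.1 asked for a pairing, and those of different number by −0.08 to 0.07 (median −0.03). Of the 20 libraries, 9 correlated best with their own number, and all 20 with a number from their own set (1 and 2, or 3 and 4). Over all genes the block called 269, 333 and 46 at 46, 50 and 54 °C against 117, 148 and 15, and DESeq2 182, 249 and 32. Library totals called 50 higher and 227 lower at 50 °C, against 64 and 84, and 95 and 33 at 46 °C, against 75 and 42; they moved the median of all genes at 50 °C to −0.10 and that of the ZNF genes to −0.16. At a median standard error of 0.36, changes below 2-fold in single ZNF genes were mostly too small to be called in these samples. Larger changes also went uncalled by edgeR. Against nanoparticles alone these included the largest fall at 46 °C, a log2 fold change of −1.78 in ZNF574. The largest rise at 50 °C, 1.39 in ZNF621, was another. The parts of depth and of spread between replicates in this were not tested.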
